A study of Drosophila melanogaster with 2 samples.

Results

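The irre cell recognition genes of Drosophila melanogaster, kirre, rst, sns and hbs, were examined for binding of tagged CG10462 in whole embryos. These 4 genes, of 18358 annotated genes other than transposable elements, were taken as a family of related cell adhesion genes, with kirre chosen by its number of summits in the combined peak list. Entries were assigned to a gene when their summit lay between 2 kb upstream of it and its end. On this rule kirre held 13 of the 2993 summits of the optimal list, and rst, sns and hbs held 0 each, while 18.6% of all genes and 21.3% of protein-coding genes held at least 1. Because these counts chose the gene, they are given as a description with no test.

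The measurement was chromatin immunoprecipitation with sequencing of 2 biological replicates, labelled 2 and 3, of 1 group. The embryos were 0 to 24 hours old, of both sexes pooled, from a stable transgenic line in which CG10462, an uncharacterised gene, makes a protein fused at its C-terminus to green fluorescent protein. The antibody was directed to that tag. Both replicates carry the transgene, so no condition was compared, and an untagged or input library was not analysed here. The optimal list holds the peaks that the authors kept by the irreproducible discovery rate, a measure of agreement between replicate rankings. Longer relaxed lists of 30000 entries each, which include background, exist for replicate 2, for replicate 3 and for their pooled reads. Whole embryos mix all cell types, so binding in few cells and weak binding in many cells cannot be told apart. The lists hold no read counts, and the depth of each library is unknown.

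The 4 genes code for transmembrane proteins of the immunoglobulin superfamily that bind one another between neighbouring cells. In the embryonic body wall, Kirre (also called Dumbfounded) and Rst (Roughest) act on muscle founder cells, while Sns (Sticks and stones) and its relative Hbs (Hibris) act on the fusion-competent myoblasts that are drawn to them and fuse. The same proteins sort cells in the developing eye, and Kirre and Sns build the filtration slits of nephrocytes, as their relatives NEPH1 and nephrin do in the vertebrate kidney.

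The DNA under 5 of the kirre summits is shown because it carries the features compared below. Each window spans 200 bp of the Release 6 assembly (RefSeq, the dm6 build), centred on the summit. Capitals mark the letters CACTG or, as its complement on the other strand, CAGTG. Summits are numbered 1 to 13 along the gene. All 5 lay in introns of kirre. Summit 13 was the strongest, and summit 2, which also lay at the start of a neighbouring gene, has no such letters. The letters are in 7 of the 13 windows, and on both sides of the summit in 3, all of which are shown. The 5 windows are therefore not a typical sample of the 13.
Summit 13, chrX:3097120-3097319, plus strand: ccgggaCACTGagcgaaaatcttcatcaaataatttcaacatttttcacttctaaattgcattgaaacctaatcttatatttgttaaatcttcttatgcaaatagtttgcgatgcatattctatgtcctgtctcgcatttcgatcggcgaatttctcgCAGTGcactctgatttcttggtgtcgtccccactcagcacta
Summit 12, chrX:3068403-3068602, plus strand: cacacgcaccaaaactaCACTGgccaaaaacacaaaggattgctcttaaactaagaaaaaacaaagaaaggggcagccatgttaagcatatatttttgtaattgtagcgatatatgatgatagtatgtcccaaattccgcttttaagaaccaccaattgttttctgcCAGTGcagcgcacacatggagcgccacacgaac
Summit 10, chrX:3025598-3025797, plus strand: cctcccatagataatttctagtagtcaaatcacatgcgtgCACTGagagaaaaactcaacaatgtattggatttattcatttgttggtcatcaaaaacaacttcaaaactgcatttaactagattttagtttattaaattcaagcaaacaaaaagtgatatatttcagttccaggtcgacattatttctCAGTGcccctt
Summit 6, chrX:2978212-2978411, plus strand: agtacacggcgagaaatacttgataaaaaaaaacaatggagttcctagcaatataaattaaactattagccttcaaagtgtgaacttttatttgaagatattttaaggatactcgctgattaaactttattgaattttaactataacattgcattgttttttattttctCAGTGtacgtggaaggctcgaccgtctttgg
Summit 2, chrX:2744147-2744346, plus strand: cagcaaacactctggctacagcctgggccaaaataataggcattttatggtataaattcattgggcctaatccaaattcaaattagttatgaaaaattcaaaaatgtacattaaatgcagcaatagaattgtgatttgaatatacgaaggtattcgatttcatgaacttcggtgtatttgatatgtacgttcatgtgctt

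The window of summit 13 has CACTG centred 92 bp before the summit and CAGTG 60 bp after it, on either side of a stretch rich in A and T. In the window of summit 10 they lie 58 bp before and 91 bp after, and in that of summit 12 they lie 81 bp before and 69 bp after. The window of summit 6 has CAGTG on the right side, 71 bp from the summit, and none on the left.

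The kirre gene (FBgn0028369) runs along the plus strand of X from 2740384 to 3134532, a length of 394 kb, and has 7 transcripts with 6 starts. It encloses a whole neighbourhood. Its span, with the 2 kb upstream, overlaps 24 other genes, of which 23 lie wholly inside it. One of these is the family member rst (FBgn0003285), which runs on the minus strand from 2950399 to 2973834. Another is w (white), the eye pigment transporter gene. Every rst entry below is therefore also a kirre entry by position.

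**Figure D1:**
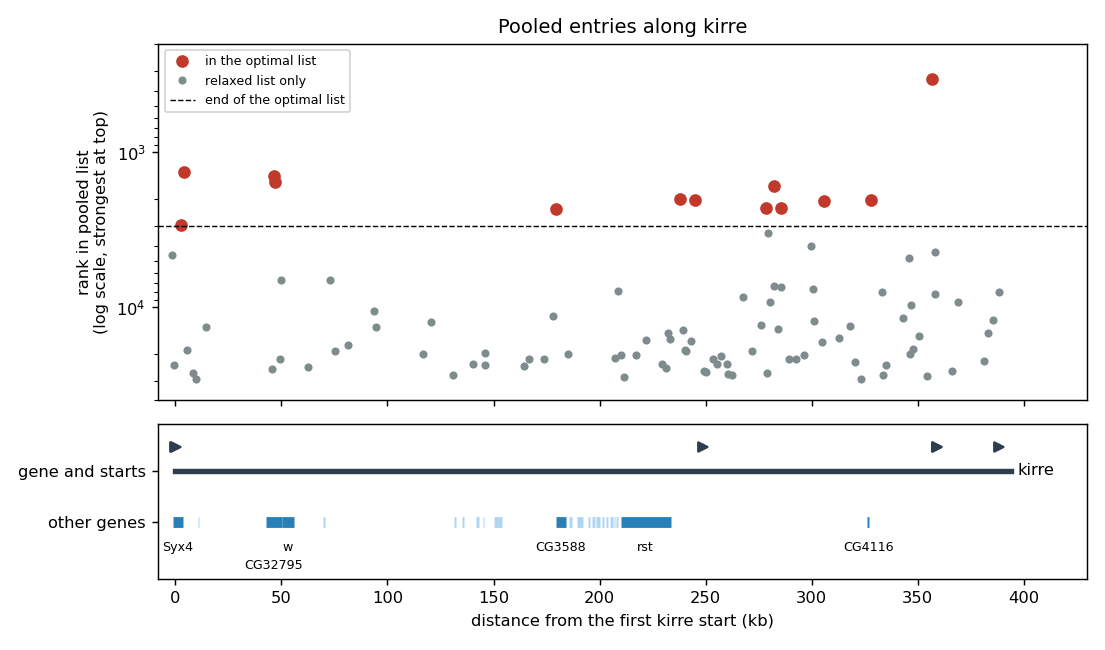
The upper panel gives the rank of each pooled entry (log scale, strongest at the top) against its distance from the first kirre start in kb, with the 13 entries of the optimal list as larger points. The lower panel shows kirre with arrowheads at its starts (some overlap) and the other genes inside it; 8 of the 13 optimal summits lie to the right of rst.

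The strongest kirre peak was summit 13 at X position 3097220. It ranked 336 in the pooled list, 523 in replicate 2 and 226 in replicate 3, with signal values of 196, 100 and 96.4 from the authors' caller. It lay in intron 6 of the transcript from the first start, 2330 bp upstream of the nearest kirre start. Its interval was 155 bp wide, while the median width was 416 bp in kirre and in the whole optimal list. Of all 2993 optimal peaks, 2553 (85.3%) had that median width, and 108 (3.61%) were narrower than summit 13. The next best kirre summit in the pooled list ranked 1335.

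A cluster of 3 summits within 6.8 kb also lay in intron 6. Summit 8 at 3018897 ranked 2287 in the pooled list, 3312 in replicate 2 and 2320 in replicate 3. Summit 9 at 3022571 ranked 1647, 1896 and 1787 in the same order. Summit 10 at 3025698 ranked 2284, 2634 and 2212. All 3 were 29846 bp or more from any annotated start. The stretch from summit 8 to summit 10 held 8 pooled entries, or 1.18 per kb. Its ends are set by summits themselves, and some of the 8 overlap the same replicate entries, so this density is raised by construction. Further along the same intron, summit 11 at 3046217 ranked 2071, 2559 and 2101, and it was 21265 bp from the nearest start. Summit 12 at 3068503 ranked 2024 in the pooled list, 3678 in replicate 2 and 1419 in replicate 3. It lay 941 bp upstream of the start of CG4116, a small gene nested in the intron, and it also counted for that gene.

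Intron 4 held 2 summits, both between the rst start and an internal kirre start. Summit 6 at 2978312 lay 4478 bp upstream of the only rst start and ranked 1990 in the pooled list, 3278 in replicate 2 and 1298 in replicate 3. Summit 7 at 2985386 lay 3665 bp upstream of the kirre start at 2989051 and ranked 2043, 3006 and 1754. Both ranked higher in replicate 3 than in replicate 2. With the upstream extension set to 5 kb, summit 6 also counted for rst.

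The other 5 summits lay at or inside other genes of the kirre span. Summits 1 and 2, at 2743232 and 2744247, were 274 bp and 171 bp upstream of starts of Syx4, a syntaxin gene of membrane fusion that overlaps the 5' end of kirre on the other strand. Summit 1, which also lay inside Syx4, was the weakest of the 13, at 2935 in the pooled list, 6292 in replicate 2 and 1767 in replicate 3. Summit 2 ranked 1335, 1110 and 2205. The Syx4 pair was thus ordered alike in the pooled list and replicate 2 and the other way round in replicate 3. Summits 3 and 4, at 2786748 and 2787475, were 727 bp apart inside CG32795, next to w. They ranked 1427 and 1551 in the pooled list, 1041 and 1890 in replicate 2, and 2649 and 1040 in replicate 3, again in opposite order. Summit 5 at 2919947 lay inside CG3588, 172 bp upstream of a start within that gene, and ranked 2310, 3761 and 1528. The remaining 8 summits, numbers 6 to 13, lay outside other genes and over 500 bp from their starts, and all 8 were to the right of rst.

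None of the 6 kirre starts had an optimal summit within 500 bp. The distance from a summit to the nearest kirre start ran from 2330 to 69104 bp with a median of 31047 bp. Counting starts of any gene, 3 of 13 summits (23.1%) lay within 500 bp, against 1603 of all 2993 (53.6%), and 8 (61.5%) were over 2 kb away, against 782 (26.1%). No summit was in a kirre exon or on any of the 5 annotated transposable elements in the span. Weaker entries did lie near kirre starts. The pooled entry 98 bp upstream of the start at 3128639 ranked 7928, with entries ranked 18729 in replicate 2 and 5781 in replicate 3 at nearly the same place. At the first start, the nearest pooled entry was 0.449 kb upstream and ranked 23783.

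One further peak ended the row just past the gene. Its summit at 3134563 was 31 bp beyond the kirre end and 307 bp upstream of the start of N (Notch, the receptor gene), and it ranked 2334 in the pooled list, 1990 in replicate 2 and 3289 in replicate 3. The end of kirre and the start of N are separated by 337 bp. The summit falls outside the assignment to kirre, although the peak interval begins inside the gene.

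Summits were spread unevenly along kirre. From the upstream edge to the rst start, 235 kb held 5 optimal summits (0.0212 per kb), and the remaining 161 kb held 8 (0.0498 per kb). The pooled relaxed list gave 0.174 and 0.361 entries per kb for these stretches, replicate 2 gave 0.132 and 0.355, and replicate 3 gave 0.187 and 0.324. The right-hand stretch was the denser in all 4 lists. These are not independent, since the optimal peaks are all pooled entries and the pooled reads come from both replicates. The split at the rst start was not part of the planned results, and the difference was not tested. Between summits 4 and 5, 132 kb held 0 optimal summits and 18 pooled entries. Intron 3, 105 kb long, held 1 optimal summit, while intron 6, 134 kb long, held 6. The gene w had 0 entries in the pooled list and in replicate 2, and 3 in replicate 3, the best at rank 17802.

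Most kirre peaks were in the weaker part of the optimal list, and most ranked better in replicate 3 than in replicate 2. Their median rank was 2024 in the pooled list (all optimal peaks, 1497), 2634 in replicate 2 (1451) and 1767 in replicate 3 (1438), the values for all peaks being over the 2991 and 2950 with an entry in replicate 2 and 3. Only 3 of 13 (23.1%) were in the stronger part of the optimal list, cut at its middle. All 13 were among the 2993 strongest entries of replicate 3, but 7 (53.8%) were among those of replicate 2, against 83.1% and 87.1% of all optimal peaks. Replicate 2 gave the better rank for 2 of 13 kirre peaks (15.4%), namely summits 2 and 3, against 47.2% of all. If the 2993 strongest entries of replicate 2 alone were taken, kirre would have held 7 summits. The summits themselves were close: in 11 of 13 both replicates placed them within 50 bp of the pooled position. Why the replicates ranked these peaks differently was not tested.

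**Figure D2:**
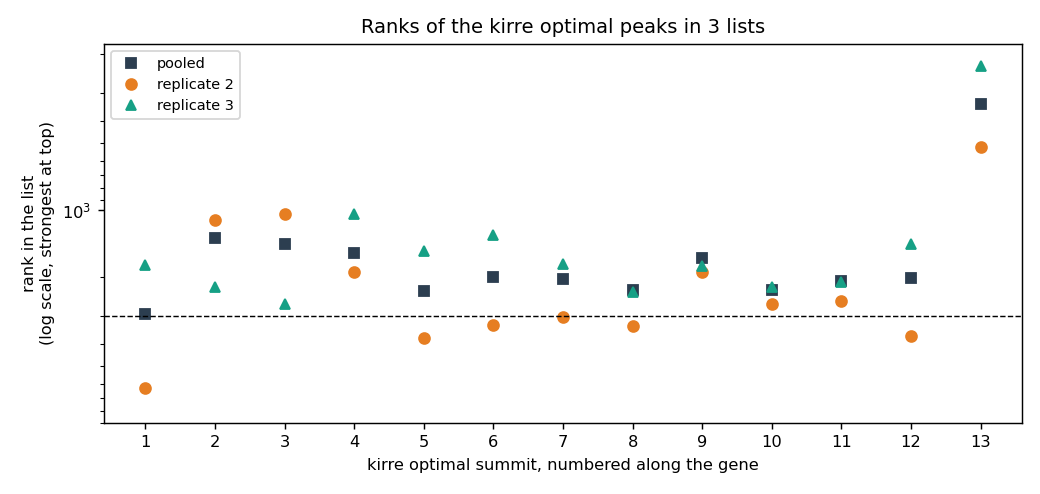
Rank of each of the 13 kirre optimal peaks (log scale, strongest at the top) in the pooled list (squares), replicate 2 (circles) and replicate 3 (triangles); the dashed line marks rank 2993. All triangles lie above the line, and 6 circles lie below it.

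The optimal list ended at kirre with summit 1, at rank 2935 and a signal value of 62.9. The first entry outside it was at 3019789, with rank 3312 and a signal value of 58.0, and it ranked 4306 in replicate 2 and 3085 in replicate 3. The next, at 3040000, ranked 4027. Of the 99 pooled kirre entries, 13 (13.1%) were in the optimal list, against 9.98% of all pooled entries. Replicate 2 had 88 entries in kirre and replicate 3 had 96. Of the 99 pooled entries, 39 (39.4%) overlapped an entry in both replicates, against 48.7% of all 30000.

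The density of entries along kirre is set beside that of the rest of X as a description, since kirre was chosen by its optimal count and the pooled list holds the same 13 peaks. It had 0.0328 optimal summits per kb (exact Poisson 95% interval 0.0175 to 0.0561, which covers counting error only and takes entries as independent, although neighbouring summits can share an interval), and the rest of X had 0.0216. In the pooled list the values were 0.25 per kb (0.203 to 0.304) and 0.208. Replicate 2 gave 0.222 (0.178 to 0.274) and 0.209, and replicate 3 gave 0.242 (0.196 to 0.296) and 0.198.

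Among long genes kirre, which was chosen by its number of summits, was near the top by that number and lower by density. Of 93 genes of 100 kb or more, 51 (54.8%) had an optimal summit, with a median of 1 per gene. Only lncRNA:CR44357 had more than kirre, with 14, and CG1677, which lies inside that noncoding gene and shares its summits, also had 13. The next, sick, Dys (dystrophin) and hth (homothorax, a homeodomain gene), had 6 each. By summits per kb kirre was number 13 of the 93. The nearest to it in density were lncRNA:CR44999 at 0.033 per kb, shep at 0.0322 and Fur1 at 0.0313, over single values of the combined list. The 4 genes longer than kirre, Myo81F, Pzl, lovit and CG17684, had 0 optimal summits each and 4, 4, 3 and 6 pooled entries. Their pooled densities were 0.00203 to 0.0151 per kb, against 0.218 over all main chromosomes, so few entries of any rank were listed there. Some of the 93 genes had 0 pooled entries. The rank of kirre by count is therefore partly set against genes with hardly any entries.

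**Figure D3:**
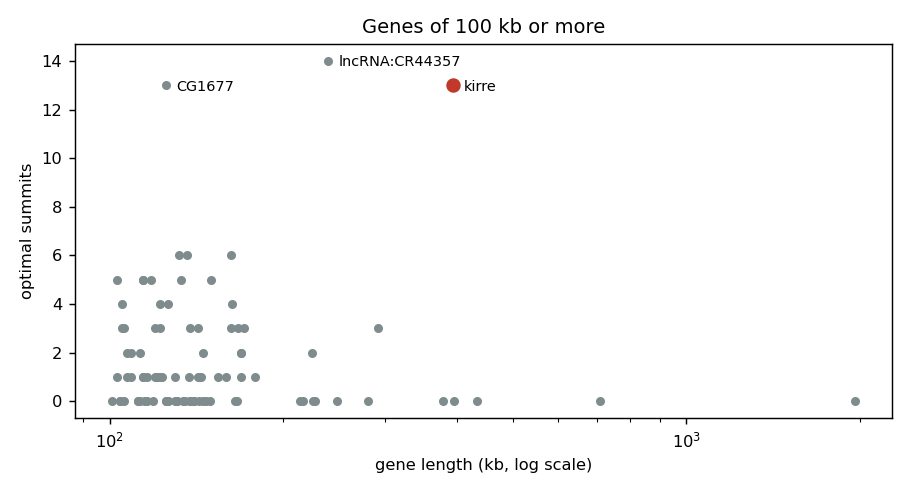
Number of optimal summits (vertical axis) against gene length in kb (log scale) for the 93 genes of 100 kb or more, 1 point a gene. The gene kirre, chosen by its count, has 394 kb and 13 summits and is the only one above 300 kb with any. Besides it, only lncRNA:CR44357 and CG1677 are above 6. The other genes above 300 kb have at most 6 pooled entries each.

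The summits in kirre lay on AT-rich sequence, more so than their surroundings. In the central 100 bp, G and C made up a median of 27.0% (lowest 20%, highest 40%), against 41.0% in the 100 bp centred 400 bp to the left and 45.0% to the right. The centre was below both flanks in 11 of 13 kirre peaks (84.6%) and in 69.8% of all optimal peaks, whose median centre was 32.0%. Of the 8 kirre summits over 2 kb from any start, 8 had a centre below both flanks, against 564 of the 782 such optimal peaks (72.1%). Summit 7 had the lowest centre at 20%, and summit 11 the highest at 40%.

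**Figure D4:**
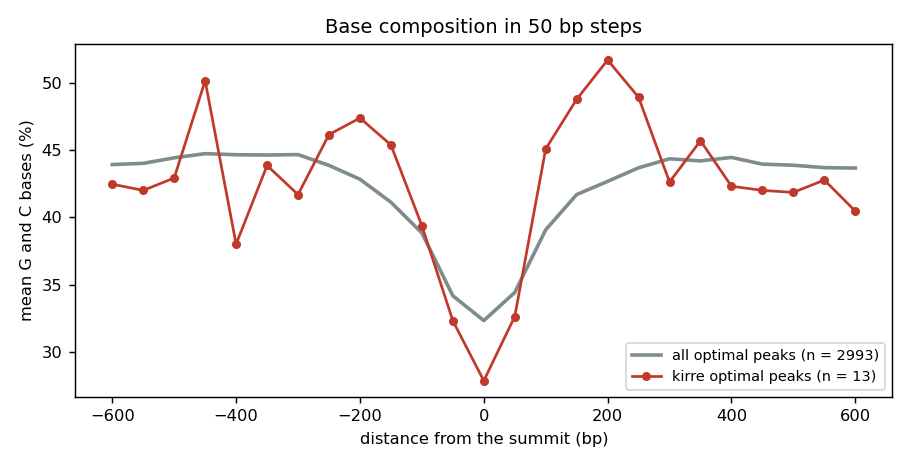
Mean share of G and C bases (%) in 50 bp steps against distance from the summit in bp, for the 13 kirre peaks (points) and all 2993 optimal peaks (line). Both dip at the summit, to 27.9% in kirre and 32.3% overall; the kirre curve rests on 13 windows and is the more ragged.

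Of 13 short sequences searched in the 200 bp around each kirre summit, on both strands, 4 had a match. A run of 8 A or T bases on one strand (AAAAAAAA) was in 6 of 13 windows (46.2%), against 15.5% of all optimal peaks, beside the lower G and C content just given. This share was not taken over the peaks more than 2 kb from a start, where 8 of the 13 kirre summits lie. GAGAG, the GAGA factor core, was in 3 (23.1%, all peaks 21.4%). The BEAF-32 core CGATA, which is also part of TATCGATA, was in 2 (15.4%, all peaks 27.9%), and the consensus of Mef2, a muscle transcription factor, in 2 (15.4%, all peaks 13.5%). Another 9 sequences had no match in kirre. They were TATCGATA (the DNA replication-related element, in 3.47% of all peaks), GATAAG (10.5%), CAGGTAG (Zelda, 0.735%), CATATG (a Twist E-box, 7.82%) and CAGCTG (another E-box, 8.45%), and also TCAAGTG (Tinman, 3.41%), TGGGAA (Su(H), 9.89%), GGTCACACT (motif 1, 1.80%) and ATATATAT (4.98%). These are matches of letters in a window and do not show whether a factor was bound.

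The letters CACTG, marked in the sequences above, were looked for after those sequences had been read, so their number in kirre is only described. They occurred on either strand in 7 of 13 kirre windows (53.8%), against 45.1% of all optimal peaks and 52.8% of those over 2 kb from a start, where 8 of the 13 kirre summits lie. In windows of the same size centred 400 bp to the left and right, the shares were 46.2% and 30.8% for kirre and 31.4% and 30.6% for all peaks. In 3 of 13 (23.1%, all peaks 8.32%, those over 2 kb from a start 12.7%) they were on both sides of the summit, namely summits 10, 12 and 13. The longer form CACTGA, read towards the summit, was in 4 of 13 (30.8%, all peaks 11%, those over 2 kb from a start 16.4%), and read away from it in 1 (7.69%, all peaks 4.41%, those over 2 kb 3.58%).

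The family member rst, founder-cell partner of kirre, had weak entries only. Its 7 pooled entries ranked from 14751 to 28370, its 8 entries in replicate 2 from 17419 to 26739, and its 4 in replicate 3 from 10929 to 27209. Only 1 place was listed in all 3: the pooled entry 153 bp inside the start, on an exon, ranked 16153, and the overlapping entries ranked 20451 in replicate 2 and 18560 in replicate 3. The best entry of replicate 3, at 2957437 in intron 3, had no overlapping entry in replicate 2. The nearest optimal summit to the rst start was summit 6 of kirre.

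The myoblast receptor gene sns (FBgn0024189, 2R 8798489 to 8856091, plus strand) had the fewest pooled entries of the 4, with 1. Its summit was 22 bp upstream of the single sns start and ranked 16862. Replicate 2 had an entry 4 bp inside the start at rank 9917 and another in intron 1 at rank 18738. Replicate 3 had 3 entries, at ranks 7493, 22945 and 29012, in introns 17, 1 and 20, and none of these overlapped an entry of replicate 2. No place in sns was thus listed by both replicates. The nearest optimal summit was 74.5 kb from the start.

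Its relative hbs (FBgn0287864, 2R 15011396 to 15042134, plus strand) came closest to the optimal list. An entry in intron 1, 23.6 kb inside the gene at 15034976, ranked 3609 in the pooled list with a signal value of 54.8, below the end of the optimal list at 2993. It ranked 6006 in replicate 2 and 2499 in replicate 3. If the 2993 strongest entries of replicate 3 alone were taken, hbs would have counted as a second member with a summit. The other 5 pooled entries, all in intron 1 too, ranked from 12086 to 24580, and each overlapped an entry of replicate 2 but none of replicate 3. Replicate 2 had 9 entries in hbs and replicate 3 had 1. Near the hbs start, the closest pooled entry was 11.4 kb upstream.

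**Figure D5:**
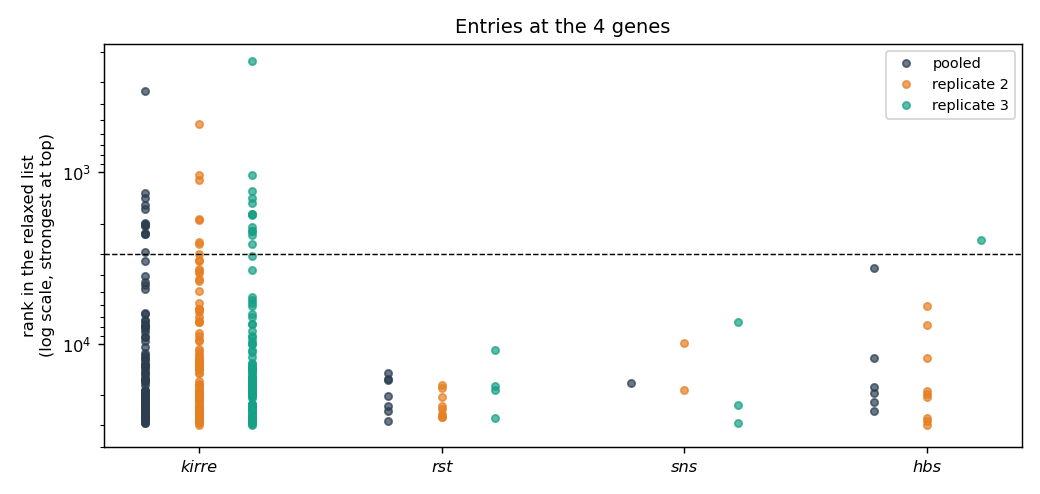
Rank of every relaxed entry (log scale, strongest at the top) at kirre, rst, sns and hbs in the pooled list, replicate 2 and replicate 3, 1 point an entry; the dashed line marks rank 2993. Entries above the line are all in kirre but 1, the hbs entry of replicate 3 at rank 2499.

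The genes rst, sns and hbs, at 23.4, 57.6 and 30.7 kb, are long beside the median protein-coding gene (2.16 kb) and short beside kirre. A pooled entry was present in 69.5% of protein-coding genes, and in all 4 family members. The exact Poisson upper limits for 0 summits were 0.145 per kb in rst, 0.0619 in sns and 0.113 in hbs. No density was tested between kirre, chosen for its count, and the other members. In the pooled list the densities were 0.275 per kb in rst, 0.0168 in sns and 0.183 in hbs, against 0.250 in kirre. Replicate 2 gave 0.315 for rst, 0.0336 for sns, 0.275 for hbs and 0.222 for kirre. The densities of replicate 3 were 0.157 for rst, 0.0503 for sns, 0.0305 for hbs and 0.242 for kirre. The gene hbs was thus above kirre in replicate 2 and the lowest of the 4 in replicate 3.

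Other genes of myoblast fusion also held summits, and the best summits of Mef2 and Hem lay nearer to starts of other genes. Of 29 matched genes of myoblast fusion, 12 (41.4%) had an optimal summit on the same rule, and 11 of 25 (44.0%) without the 4 members, against 21.3% of protein-coding genes. By summits within 500 bp of a start the share was 24.1%, and 28.0% without the 4 members, against 14.6%. Genes of the list are long, with a median of 7.27 kb against 2.16 kb. Whether gene length bears on these shares was not tested. Mef2, the muscle transcription factor gene, had 3 summits, the best at rank 34 (39 in replicate 2, 30 in replicate 3), but this lay 157 bp upstream of a start of Pal1. Hem, of the SCAR complex of actin assembly, had 1 at rank 425 (401 and 530), 163 bp upstream of a start of IleRS. mbc (myoblast city, an activator of Rac) had 3, the best at rank 490 (827 and 370), 1187 bp inside the gene. The best peak of mbc, like that of kirre, ranked better in replicate 3, and that of Hem in replicate 2.

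The slit diaphragm list, which shares kirre and sns with the fusion list, had 4 of 8 genes with a summit (50%), and 3 of 6 without kirre and sns, against 21.3% of protein-coding genes. Its median gene length was 26.1 kb, against 2.16 kb. These were kirre, cindr (an adaptor protein gene), Src64B (a kinase gene) and pyd (the ZO-1 scaffold gene). cindr had 3 summits, the best at rank 465 (379 in replicate 2, 746 in replicate 3), 168 bp upstream of a start. Src64B had 4, the best at rank 477 (486 and 564), 152 bp upstream. pyd had 4, the best at rank 1429 (1135 and 2496), 186 bp upstream. Unlike in kirre, these 3 best summits lay within 200 bp upstream of a start of their own gene.

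Other lists of adhesion genes held summits in different shares, a difference that was not tested. The immunoglobulin superfamily list leaves out kirre. Of 53 immunoglobulin superfamily genes 10 (18.9%) had an optimal summit and 9.43% had one within 500 bp of a start, against 21.3% and 14.6% of protein-coding genes. The best were ImpL2 (a secreted insulin-binding protein gene) at rank 244, fra (the netrin receptor gene) at 455, Ama (Amalgam) at 456 and DIP-alpha at 812. Of 23 cadherin and integrin genes 10 (43.5%) had a summit and 26.1% had one within 500 bp of a start, with median lengths of 33.6 kb and 11.8 kb for these lists. The best were Cals (calsyntenin) at rank 303, ds (the protocadherin gene dachsous) at 453, Cad96Cb at 830 and scb (an integrin alpha subunit gene) at 860. The most summits in either list were 6, in ed (echinoid), a gene of 84.4 kb, against 13 in the 394 kb of kirre. Per kb, ed thus held more summits than kirre, which was chosen by its count.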

How the data were processed

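Chromatin immunoprecipitation with sequencing was measured in 2 samples of 1 group. Per the deposited sample notes, the authors called relaxed lists from each replicate and from the pool against 1 control, and derived the optimal list from them; the signal value of each peak is the authors' own, with unstated scaling, and was used to rank entries within a list. Which aligner and caller were used is not given in the sources used here. Depth is unknown. Positions are dm6, counted from 1; a summit is the listed start plus the listed offset. Genes came from Ensembl release 115 and sequence from RefSeq Release 6; the 4 genes had equal coordinates in both, and 0 entries ran past a chromosome end. The dm3 lists were not used. Overlap meant 1 bp or more, and the strongest overlapping entry gave a replicate's rank.

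The family and the gene lists were chosen with earlier results of these data known. Named are the 4 genes, genes at or nearest to kirre summits, the 4 best-ranked members of each list, and, among genes of 100 kb or more, the longest, those with most summits and those nearest kirre in density; N, w, Pal1, IleRS and ed were named after values were seen. No test was run, since 1 group was measured and kirre was chosen by its count. Assignment and overlap were checked on planted summits. Alternatives were other extensions, overlaps and distances, the stronger part of the list and each replicate alone. Of 30 myoblast fusion names, 29 matched. Python 3.11.15, numpy 2.4.6, scipy 1.17.1 and matplotlib 3.10.9 were used.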

Additional observations from a re-analysis of the deposited data

How the results depend on the processing

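The 13 kirre summits were unchanged with no upstream extension or one of 5 kb, and were 14 with peak intervals in place of summits. They were 3 in the stronger part of the optimal list, and 8 without summits inside other genes or within 500 bp of their starts, a choice made after seeing the data. Leaving out 1 replicate gave 7 to 13, the 7 without replicate 3. Here and below it meant taking the 2993 strongest entries of the other replicate. That is a cut by rank and not the authors' rule, which needs both replicates. Members with a summit were 1, but 2 with an extension of 5 kb (rst added) and 1 to 2 with 1 replicate left out (hbs added without replicate 2). The 7 kirre peaks among the strongest entries of both replicates were 6 with a stricter overlap of intervals, 7 with summits within 100 bp, 13 with all relaxed entries, 1 with a shorter list of strongest entries, and 7 to 13 with 1 replicate left out. The 3 summits within 500 bp of a start were 2 at 200 bp, 4 at 1 kb, 3 with protein-coding starts, 1 in the stronger part of the list and 1 to 3 with 1 replicate left out. The choices by replicate for the last 2 results were added after seeing the data. The lists give no depth, so an entry missing from one replicate does not show absence of binding. No paired analysis was possible because there is 1 group.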

Other observations

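The letters CACTG were also counted around all 2993 optimal summits, after they had been seen at kirre. Per 100 peaks and 20 bp step, matches on either strand were lowest beside the summit, at 3.58 from 0 to 20 bp to the right, against 3.61 from 280 to 300 bp to the right, and highest at 9.19 from 80 to 100 bp to the right; on the left the highest value was 7.99, from 80 to 100 bp away. Of the 782 optimal peaks over 2 kb from a start, 16.4% had CACTGA read towards the summit and 3.58% had it read away, and among the 1603 within 500 bp of a start the shares were 7.61% and 4.87%. Of the 86 kirre pooled entries below the optimal list, 8.14% and 4.65% had them. The difference between these sets was not tested.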
